A study of Mus musculus with 7 samples.

Results

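The enzymes that oxidize pyruvate, branched-chain amino acids and ketone bodies in mitochondria were followed through 31 genes in ventricles of mice bred as a model of the myocarditis that immune checkpoint inhibitors (ICI) can cause. The members were chosen by symbol, as 14 genes of the TCA cycle, 5 of pyruvate entry, 9 of branched-chain amino acid breakdown and 3 of ketone body use. All 31 were among the 23420 rows of the deposited table, and all 31 passed the filter on low values that left 15258 genes. All 7 animals were labelled Pdcd1-/-, so neither group was wild type. The 4 control animals were Ctla4+/+;Pdcd1-/- and the 3 ICI-myocarditis animals were Ctla4+/-;Pdcd1-/-, untreated and 3 to 6 weeks old. Ctla4 and Pdcd1 encode brakes on T cells at which checkpoint inhibitors are aimed, and no inhibitor was given: the condition was modelled by genotype. Total RNA of the heart was sequenced from 1 library per animal. The labels give no sex, litter or batch.

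The TCA cycle oxidizes acetyl-CoA to carbon dioxide in the mitochondrial matrix and passes electrons to the respiratory chain. Acetyl-CoA reaches it from pyruvate through pyruvate dehydrogenase, from fatty acids, from ketone bodies and from the carbon skeletons of leucine and isoleucine. The heart has a constant demand for ATP, draws on all of these fuels and is rich in mitochondria, and the same lipoamide dehydrogenase subunit, encoded by Dld, serves the pyruvate, oxoglutarate and branched-chain ketoacid dehydrogenase complexes.

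Libraries held 20931730 to 39037176 reads. Cardiomyocyte markers (15 genes, among them Myh6, Tnni3 and Ttn) were expressed in every library, in tissue that the labels give as ventricular. Of 5 atrial markers Bmp10 was listed at 0 throughout and Nppa was called higher in ICI-myocarditis. Summed over all 5, control libraries held 6389 to 8834 normalized counts, against 38541 to 174644 for the ICI-myocarditis libraries. That sum does not stand for the list as a whole. Of the 3 markers tested only Nppa was called, 1 lay below 0, and the median log2 fold change was 0.14 (range -0.14 to 3.60). Pdcd1 had 2.50 to 244 normalized counts in controls and 1096 to 1481 in ICI-myocarditis, and Ctla4 had 29.2 to 113 in the Ctla4+/+ controls and 251 to 373 in the Ctla4+/- group (log2 fold change 2.40, adjusted p = 0.00849 in limma). Ctla4 was thus higher in the group labelled Ctla4+/-, and as gene totals do not tell exons apart, neither gene's level could check the genotype. Control 2 stood apart from the other controls. It had 2172 normalized counts summed over 11 T cell markers where the other controls had 165 to 276 and the ICI-myocarditis libraries 9162 to 14348, and on the first principal component of all genes (68.6% of variance) it lay between the other controls and the ICI-myocarditis libraries. The calls, fold changes and ratios below were therefore also computed without it.

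All 31 genes had lower mean levels in ICI-myocarditis, and 9 of them fell by the criterion used here, an adjusted p under 0.05 in limma. In order of p these were Bckdha, Bdh1, Mccc1, Mccc2, Bckdhb, Idh2, Suclg2, Ivd and Idh3b. None rose. Over all genes tested, 4.0% were called lower and 11.7% higher. Of all genes tested, 51.9% lay below 0. Among the 31 the median fold change was -1.09 in log2 units, against -0.02 for all genes tested, with single values from -2.09 (Bdh1) to -0.77 (Hibch). All fold changes compare ICI-myocarditis with control and are differences of mean log2(normalized count + 1). Unadjusted p was under 0.05 for 27 of the 31, where 12.4% of all genes tested reached this in the same direction. In the authors' deposited table the adjusted p of 23 of the 31 was below 0.05, all lower, against 7.35% of all genes to which that table gave an adjusted p. On the recovered reads, edgeR called 8 of the 31 lower (3.49% of all genes), DESeq2 23 (7.35%) and limma-voom with quality weights 29 (9.95%). The count of calls rested on single libraries. Without control 2 it was 28 (7.19% of all genes called lower), without ICI-myocarditis 3 it was 1 (Bdh1, 1.04%), and without control 3 it was 2 (Bckdha and Bdh1, 1.17%). It was 4 (Bckdha, Bdh1, Mccc1 and Mccc2) without control 1, control 4 or ICI-myocarditis 2, where 1.6%, 3.55% and 2.21% of all genes were called lower.

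**Figure D1:**
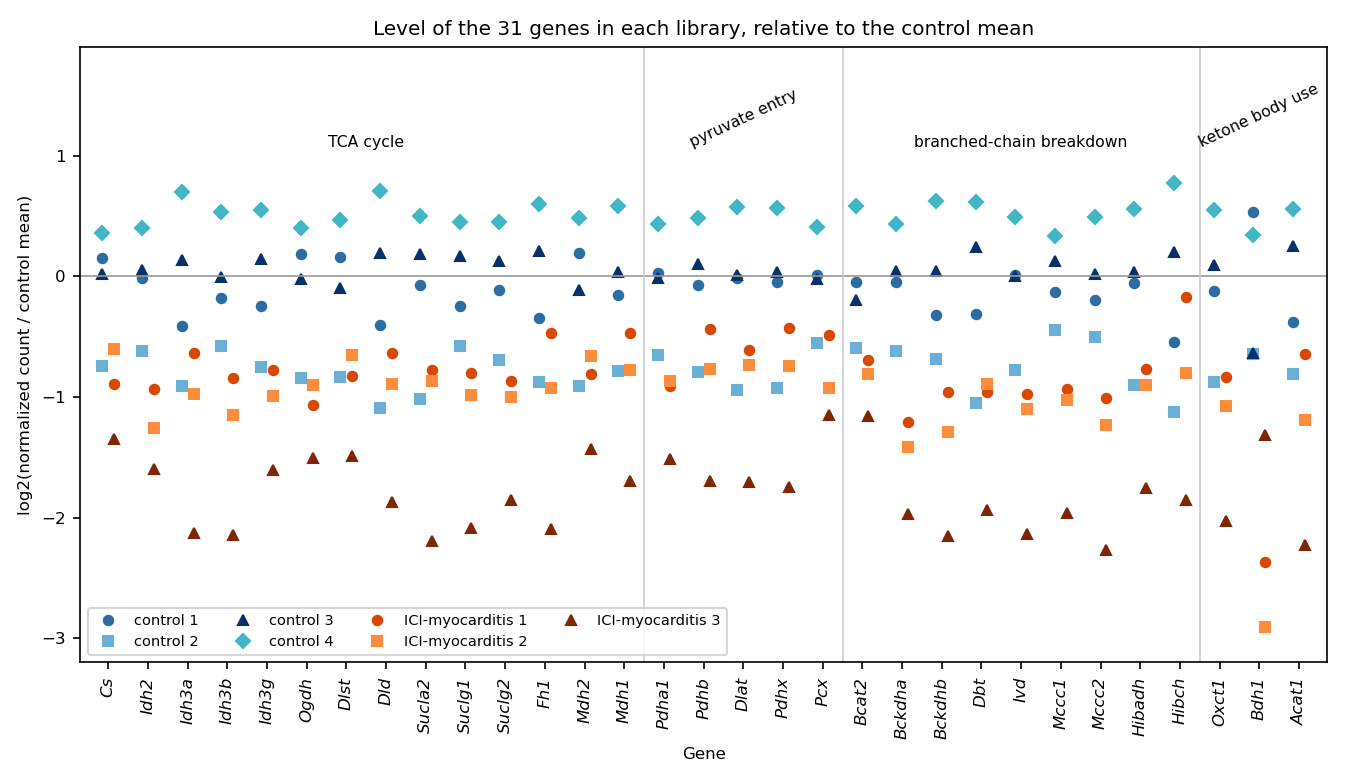
Log2 of the normalized count over the control mean, for the 31 genes (horizontal axis, by role) in each library, blue for control and orange for ICI-myocarditis. Control 2 is the lowest control for all 31 genes, and ICI-myocarditis 3 is the lowest library for 30 of 31.

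The genes shared much of the order of the libraries. Control 2 was the lowest control for all 31 genes, control 4 the highest control for 30, ICI-myocarditis 3 the lowest of all 7 libraries for 30, and ICI-myocarditis 1 the highest of its group for 24. The exception to the lowest library was Bdh1. For 14 genes every ICI-myocarditis library lay below every control, where 11.3% of all genes tested did so. For the other 17 the groups overlapped, and for 16 of these the overlap came from control 2 alone. The exception was Hibch. The genes also varied more within groups than most. Their median SD of log2 values was 0.56 in controls and 0.61 in ICI-myocarditis, and it was 0.40 and 0.28 over all genes tested. A shared order of libraries means that the 31 values are not 31 independent observations.

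**Figure D2:**
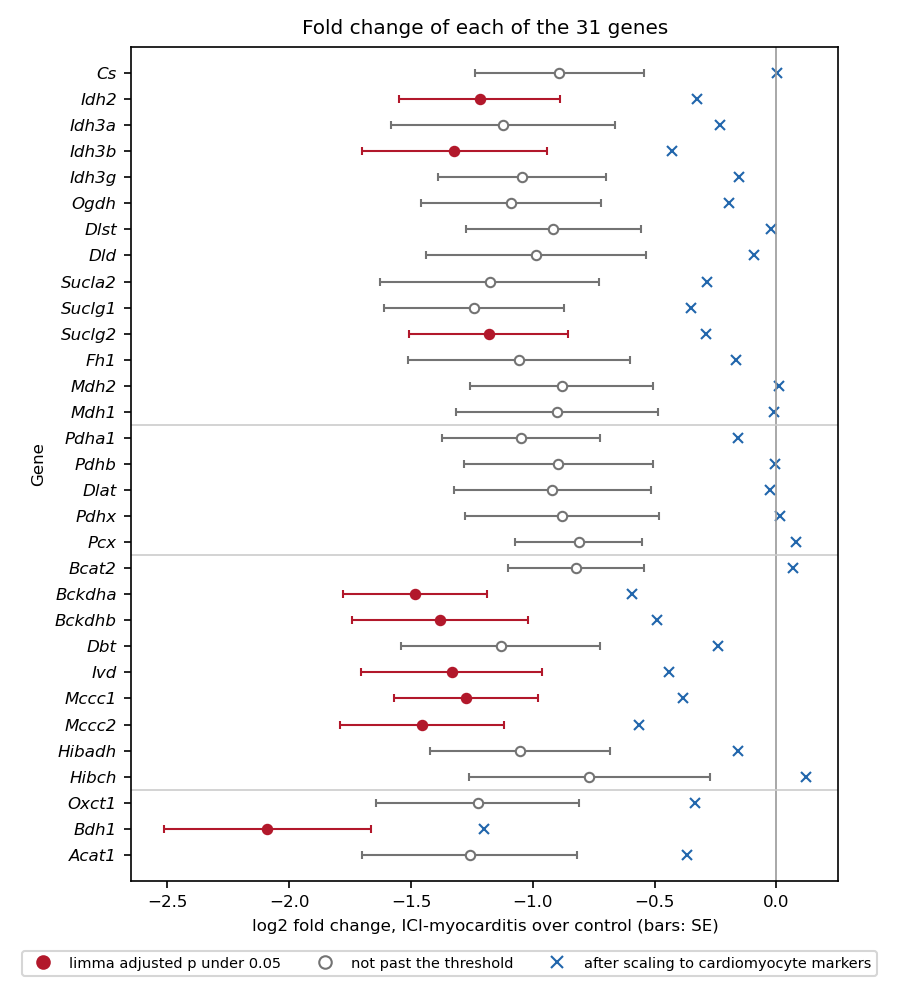
Log2 fold change of each gene with its standard error (circles and bars, filled where limma's adjusted p passed 0.05) and the value after scaling to cardiomyocyte markers (crosses). The filled circles lie between -2.09 and -1.18, and the crosses lie between -1.20 and 0.12.

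In the TCA cycle, 3 of 14 genes were called lower (Idh2, Suclg2 and Idh3b). The group's median fold change was -1.07 in log2 units. The highest levels per kilobase of transcript among the 31 genes were in this group, with control means of 28985 for Idh2, 22985 for Mdh1, 19937 for Mdh2 and 19218 for Ogdh, down to 1259.7 for Suclg2, on the scale of normalized counts per kilobase.

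Idh2 (chr7:80094846-80115392, minus strand; coordinates here are from GENCODE on GRCm38), which makes NADPH by oxidizing isocitrate in the mitochondrial matrix, had 50098, 32877, 52451 and 66888 normalized counts in controls 1 to 4 and 26474, 21199 and 16673 in ICI-myocarditis 1 to 3. Every ICI-myocarditis library lay below every control, and the log2 fold change was -1.22 ± 0.33 (SE; adjusted p = 0.0358 in limma). Without ICI-myocarditis 3 it missed the threshold (adjusted p = 0.156).

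Idh3a, Idh3b and Idh3g encode the subunits of the NAD-linked isocitrate dehydrogenase, the step that commits carbon to oxidation. Idh3b (chr2:130279309-130284547, minus strand) had 19046, 14457, 21509 and 31141 normalized counts in controls 1 to 4 and 11978, 9728 and 4883 in ICI-myocarditis 1 to 3. All of its ICI-myocarditis values were below all controls (-1.32 ± 0.379 SE in log2 units, adjusted p = 0.0447 in limma). The other subunit genes had log2 fold changes of -1.12 ± 0.459 (SE; adjusted p = 0.137 in limma) for Idh3a and -1.04 ± 0.345 (SE; adjusted p = 0.0727 in limma) for Idh3g, and the groups of Idh3a overlapped at control 2.

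The 3 succinyl-CoA ligase genes had fold changes within 0.06 of each other on the log2 scale. Suclg2 (chr6:95473009-95718800, minus strand), the beta subunit of the GTP-forming enzyme, had 3918, 2620.1, 4634 and 5794 normalized counts in controls 1 to 4 and 2328, 2119.8 and 1173 in ICI-myocarditis 1 to 3. It fell, with groups apart (-1.18 ± 0.327 SE in log2 units, adjusted p = 0.0394 in limma). Suclg1, the subunit shared by the GTP-forming and ATP-forming enzymes, had a log2 fold change of -1.24 ± 0.37 (SE; adjusted p = 0.051 in limma), and Sucla2, the beta subunit of the ATP-forming enzyme, had -1.18 ± 0.45 (SE; adjusted p = 0.113 in limma). The values of Suclg1 were apart between groups and those of Sucla2 were not. A processed pseudogene, Gm15163, which has no row in the table, is 98.9% identical to Suclg2 over 1302 bases, so that the count of Suclg2 is uncertain to that extent.

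The remaining TCA cycle genes were below control without passing the threshold. Cs, citrate synthase, which joins acetyl-CoA to oxaloacetate, had 46714, 25113, 42578 and 54162 normalized counts in controls 1 to 4 and 22737, 27795 and 16552 in ICI-myocarditis 1 to 3. Control 2 lay below ICI-myocarditis 2 in that gene, and the fold change was -0.89 ± 0.347 (SE; adjusted p = 0.12 in limma). Ogdh, the catalytic subunit of oxoglutarate dehydrogenase, had 90225, 44318, 78155 and 104548 normalized counts in controls 1 to 4 and 37912, 42453 and 27923 in ICI-myocarditis 1 to 3. All of its ICI-myocarditis values lay below the controls (-1.09 ± 0.37 SE in log2 units, adjusted p = 0.079 in limma). Dlst and Dld, which encode the other subunits of that complex, had log2 fold changes of -0.92 and -0.99 (adjusted p = 0.121 and 0.18). Fh1, fumarase, had -1.06, and the malate dehydrogenase genes Mdh2 (mitochondrial) and Mdh1 (cytosolic) had -0.88 and -0.90 (adjusted p = 0.155, 0.151 and 0.181). Mdh1 and Hibch were the only 2 of the 31 genes that passed in none of the 17 alternative fits.

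Pyruvate entry held 5 genes and none was called. The median of their log2 fold changes was -0.90. Unadjusted p was under 0.05 for 4 of the 5, and edgeR called 0, DESeq2 2 and limma-voom with quality weights 5 of them. Pdha1, the catalytic alpha subunit of pyruvate dehydrogenase, had 28027, 17469.8, 27125 and 37133 normalized counts in controls 1 to 4 and 14615, 15006 and 9584 in ICI-myocarditis 1 to 3. Its ICI-myocarditis values were all below control values, at -1.05 ± 0.324 (SE; adjusted p = 0.0584 in limma). The partners in that complex, Pdhb, Dlat and Pdhx, had log2 fold changes of -0.90, -0.92 and -0.88, so that the 4 genes spanned 0.17 on the log2 scale. Pcx, pyruvate carboxylase, which refills oxaloacetate, was the lowest of the 31 genes per kilobase (324 in controls and 183 in ICI-myocarditis, normalized counts per kilobase) and had a log2 fold change of -0.81 ± 0.26 (SE; adjusted p = 0.065 in limma).

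Branched-chain amino acid breakdown had the most calls, 5 of 9 genes, and a median of -1.28 in log2 units. Called genes sat at several steps of the route. The first step, catalysed by the mitochondrial transaminase of Bcat2, had a log2 fold change of -0.82 ± 0.278 (SE; adjusted p = 0.0781 in limma), which was not past the threshold.

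The second and committing step is run by the branched-chain ketoacid dehydrogenase complex. Bckdha (chr7:25629946-25658981, minus strand), which encodes its alpha subunit, had 7078, 4758, 7553 and 9910.4 normalized counts in controls 1 to 4 and 3177, 2744 and 1867 in ICI-myocarditis 1 to 3. All ICI-myocarditis values lay below the lowest control. The gene fell (-1.48 ± 0.295 SE in log2 units, adjusted p = 0.0108 in limma) and passed in 16 of 17 alternatives, with the exception without ICI-myocarditis 3 (adjusted p = 0.0527). Bckdhb (chr9:83925145-84124240, plus strand), the beta subunit, had 1184, 915, 1521 and 2278 normalized counts in controls 1 to 4 and 760.2, 602 and 332 in ICI-myocarditis 1 to 3. Its groups were apart, and it fell (-1.38 ± 0.362 SE in log2 units, adjusted p = 0.032 in limma). Dbt, the transacylase core, had -1.13 (adjusted p = 0.0946), with control 2 inside the ICI-myocarditis range. In the annotation, 61.7% of the exon bases of Bckdha (1171 bases) lie opposite those of B3gnt8, whose own row held 116 to 261 normalized counts. Opposite-strand exons also cover 16.1% of the exon bases of Pdha1, 15.9% of Bcat2, 13.7% of Bdh1 and 12.6% of Oxct1. Whether the reads were counted by strand is not given in the sources used here, so these levels are uncertain to that extent.

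The 3 members that act in leucine breakdown beyond that step were all called. Auh, a further gene of that route given below, was not (log2 fold change -1.13, adjusted p = 0.065 in limma). Ivd (chr2:118861954-118882909, plus strand), isovaleryl-CoA dehydrogenase, had 9393, 5413, 9325 and 13069.5 normalized counts in controls 1 to 4 and 4742, 4347 and 2121 in ICI-myocarditis 1 to 3. Its log2 fold change was -1.33 ± 0.372 (SE; adjusted p = 0.0404 in limma), with groups apart. Mccc1 (chr3:35959312-36000678, minus strand) and Mccc2 (chr13:99948530-100015639, minus strand) encode the subunits of the biotin-dependent methylcrotonyl-CoA carboxylase. Mccc1 had 3191, 2572, 3824 and 4415 normalized counts in controls 1 to 4 and 1835, 1724 and 899 in ICI-myocarditis 1 to 3, and Mccc2 had 1689, 1363, 1968 and 2731 normalized counts in controls 1 to 4 and 964, 823 and 403 in ICI-myocarditis 1 to 3. In both genes every ICI-myocarditis library was below every control, with log2 fold changes of -1.28 ± 0.296 (SE; adjusted p = 0.02 in limma) and -1.45 ± 0.338 (SE; adjusted p = 0.0201 in limma).

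Hibadh and Hibch, the valine genes among the 31, were not called by limma. Mmaa and Pcca, on a later route shared by isoleucine and valine, are given below and were called lower. Hibadh, which oxidizes hydroxyisobutyrate, had a log2 fold change of -1.05 ± 0.369 (SE; adjusted p = 0.0877 in limma). DESeq2 called Hibadh lower (adjusted p = 0.0274). Hibch, the hydrolase that makes hydroxyisobutyrate, had 1572, 1049, 2626 and 3901 normalized counts in controls 1 to 4 and 2026, 1310.3 and 633 in ICI-myocarditis 1 to 3. Its ICI-myocarditis 1 value lay above controls 1 and 2. The fold change of Hibch, -0.77 ± 0.495 (SE; adjusted p = 0.339 in limma), was the smallest of the 31.

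Ketone body use held the largest fold change. Bdh1 (chr16:31422280-31458901, plus strand), which oxidizes beta-hydroxybutyrate to acetoacetate, had 3175, 1409, 1413 and 2788 normalized counts in controls 1 to 4 and 426, 294 and 885 in ICI-myocarditis 1 to 3. Every ICI-myocarditis library lay below every control, and unlike the other genes its lowest library was ICI-myocarditis 2 and not 3. Bdh1 fell (-2.09 ± 0.425 SE in log2 units, adjusted p = 0.0118 in limma), and it passed in 17 of 17 alternatives (largest adjusted p 0.044). The next enzyme, the transferase of Oxct1 that activates acetoacetate, had 37527, 22255, 43569 and 59816 normalized counts in controls 1 to 4 and 22844, 19327 and 10007 in ICI-myocarditis 1 to 3. Control 2 lay inside the ICI-myocarditis range there, and the log2 fold change was -1.23 ± 0.416 (SE; adjusted p = 0.0787 in limma). Acat1, the thiolase that splits acetoacetyl-CoA and also serves isoleucine breakdown, had -1.26 ± 0.441 (SE; adjusted p = 0.0875 in limma). Oxct1 was the most abundant of these genes, with 11566 normalized counts per kilobase in controls against 703 for Bdh1.

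The promoters of the 28 genes that the RefSeq table (GRCm38.p6) holds were searched on both strands for short motifs of factors known to act on mitochondrial genes. The windows ran from 250 bases before to 50 after the start, 37 windows in all, and motif shares are over 32851 windows of the same length. Idh3a, Dbt and Acat1 were not in that table. Shown are the windows of Bckdha and Bdh1, the genes lowest in p, and those of Ogdh and Dlst, which held a searched motif (in capitals), each from 120 bases before to 30 after the start, 5′ to 3′.
Bckdha, chr7:25658732-25658881, minus strand: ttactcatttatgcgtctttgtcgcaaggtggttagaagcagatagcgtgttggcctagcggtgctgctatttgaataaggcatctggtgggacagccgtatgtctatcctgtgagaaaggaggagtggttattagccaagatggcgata
Bdh1, chr16:31422177-31422326, plus strand: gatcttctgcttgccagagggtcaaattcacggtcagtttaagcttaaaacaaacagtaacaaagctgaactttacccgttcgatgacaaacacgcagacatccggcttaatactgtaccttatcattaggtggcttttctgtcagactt
Ogdh, chr11:6292438-6292587, plus strand: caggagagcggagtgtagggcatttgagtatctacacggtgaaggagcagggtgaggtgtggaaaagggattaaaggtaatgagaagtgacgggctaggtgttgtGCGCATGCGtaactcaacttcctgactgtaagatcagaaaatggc
Dlst, chr12:85110713-85110862, plus strand: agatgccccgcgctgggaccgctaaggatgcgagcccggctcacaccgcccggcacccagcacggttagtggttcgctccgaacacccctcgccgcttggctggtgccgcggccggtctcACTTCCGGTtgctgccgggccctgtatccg
The NRF1 motif CGCATGCGC was found at 1 site, which lies in 2 overlapping windows of Ogdh, and in 1.75% of all windows, and the ETS motif ACCGGAAGT in 1 window, of Dlst, and in 1.10% of all. The estrogen-related receptor motif TCAAGGTCA and the MEF2 motif CTAAAAATA were in none of the 37 windows and in 0.423% and 0.517% of all. AAGGTCA, a shorter string contained in TCAAGGTCA and searched after that one was seen to be absent, was in 1 window, of Ogdh, and in 4.72% of all. A match is a description of the letters only.

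Levels of the 31 genes were compared with the cardiomyocyte content of each library. The genes took 1.60%, 1.20%, 1.85% and 2.01% of reads in controls 1 to 4 and 1.08%, 1.01% and 0.613% in ICI-myocarditis 1 to 3. Means were 1.66% ± 0.352 (SD, n = 4) and 0.898% ± 0.249 (SD, n = 3), and the groups did not overlap. Cardiomyocyte markers took 18.03%, 11.9%, 16.8% and 18.2% of reads in controls and 10.97%, 12.7% and 7.90% in ICI-myocarditis, so that control 2 lay inside the ICI-myocarditis range. All 15 markers had fold changes below 0 (median log2 fold change -0.80, with Ckm called lower). Over the same libraries, all 11 T cell markers and all 10 macrophage markers tested were called higher, with summed levels of macrophage markers of 13251 to 18881 normalized counts in controls and 66788 to 106659 in ICI-myocarditis. Of 8 fibroblast markers 3 were called higher (the collagen genes Col1a1, Col1a2 and Col3a1), and 6 of 10 endothelial and 4 of 6 mural markers were called lower. The B cell, neutrophil and skeletal muscle lists had 1 call each, higher (Cd79b, Csf3r and Tnnt3, of 4, 3 and 4 tested), where 11.7% of all genes tested were called higher and 4.0% lower. In each of these lists 2 of the tested genes lay below 0. Nppa was the atrial marker called higher, and of the adipocyte and liver lists no member was called (0 and 1 tested). The part of this cell makeup in the levels of the 31 genes was not tested, and in whole tissue fewer cardiomyocytes and less of a transcript per cardiomyocyte cannot be told apart.

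**Figure D3:**
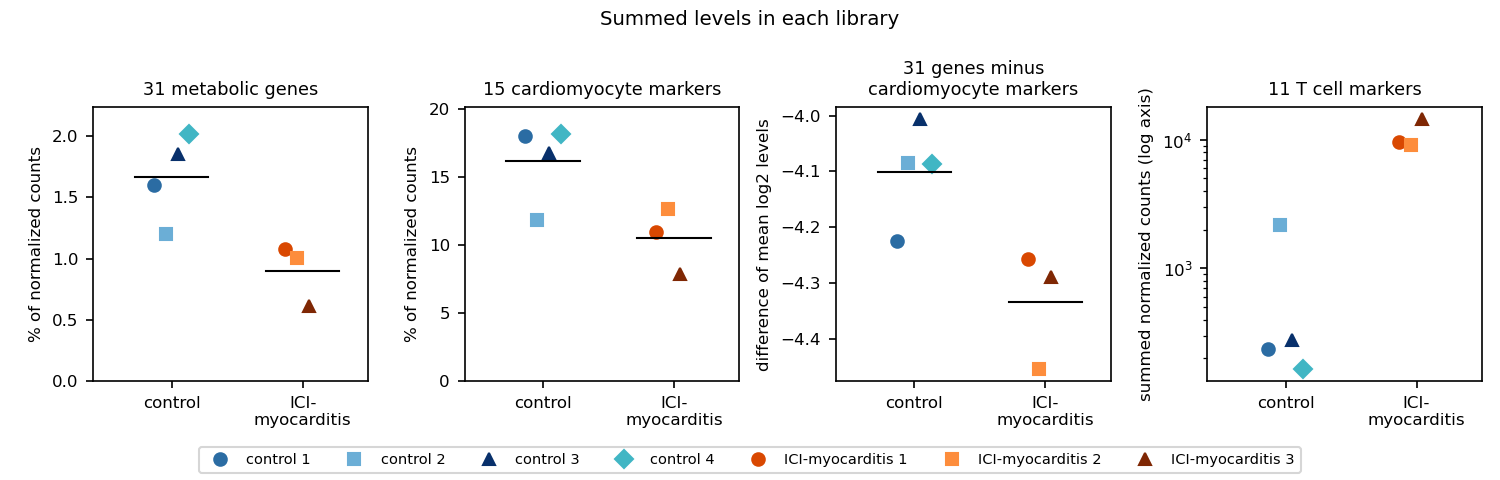
Percent of reads taken by the 31 genes, percent of reads taken by 15 cardiomyocyte markers, the difference of their mean log2 levels, and the summed normalized counts of 11 T cell markers on a log axis, in each library, with lines at group means in all panels but the last. ICI-myocarditis libraries take 0.613% to 1.08% of reads for the 31 genes and controls 1.20% to 2.01%.

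When each library was scaled to its cardiomyocyte markers, a setting chosen after the data were seen, none of the 31 genes was called, and none had unadjusted p under 0.05. The scaling raised the median log2 fold change of all genes tested to 0.86, and the median of the 31 genes was -0.20, with 25 below 0. On that scale 0.157% of all genes were called lower, and 0.577% were lower at unadjusted p under 0.05. With control 2 also left out, again none of the 31 was called (0.344% of all genes), and their median was -0.22, with 27 below 0, where that of all genes tested was 1.11. Bdh1 kept the lowest value, -1.20 (adjusted p = 0.143), followed by Bckdha with -0.59 (adjusted p = 0.144). Fold changes at or above 0 were those of Cs, Mdh2, Pdhx, Pcx, Bcat2 and Hibch, from 0.00 to 0.12. The mean log2 level of the 31 genes minus that of the markers was -4.23, -4.09, -4.01 and -4.09 in controls 1 to 4 and -4.26, -4.45 and -4.29 in ICI-myocarditis 1 to 3, so that all 3 ICI-myocarditis libraries were below the lowest control on this measure.

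Other genes of the same pathways were read from lists set beside the 31. In the 5 pathway lists, with 14, 14, 15, 19 and 8 genes tested, 14 genes were called, 10 lower and 4 higher. The shares over all genes tested were 4.0% lower and 11.7% higher. All 14 were called without control 2, 6 without control 1, 6 without control 3, 10 without control 4, 11 without ICI-myocarditis 1, 8 without ICI-myocarditis 2 and 3 (Ogdhl, Gpt and Slc7a5) without ICI-myocarditis 3. Of 14 further TCA cycle genes tested, 3 were called lower and none higher (median log2 fold change -0.90). Ogdhl, a paralog of Ogdh, had 9827, 4959, 8069 and 11267 normalized counts in controls 1 to 4 and 2827, 2612 and 1089.6 in ICI-myocarditis 1 to 3. It fell (-2.02 ± 0.394 SE in log2 units, adjusted p = 0.00997 in limma), and passed in 17 of 17 alternatives. Nnt, the transhydrogenase that makes NADPH from the proton gradient, had 26542, 11079.9, 32852 and 43411 normalized counts in controls 1 to 4 and 6773, 8703 and 5145 in ICI-myocarditis 1 to 3 and fell as well (-1.92 ± 0.449 SE in log2 units, adjusted p = 0.0206 in limma). After scaling to cardiomyocyte markers, Ogdhl and Nnt were still called lower, at -1.13 and -1.03 (adjusted p = 0.0248 and 0.0361). The third, D2hgdh, which oxidizes hydroxyglutarate, fell (-0.91 ± 0.214 SE in log2 units, adjusted p = 0.0206 in limma). Sdha, the flavoprotein of succinate dehydrogenase, had -1.19 ± 0.377 (SE; adjusted p = 0.0627 in limma), and Dhtkd1, which acts on oxoadipate, had -0.999 ± 0.333 (SE; adjusted p = 0.0743 in limma).

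**Figure D4:**
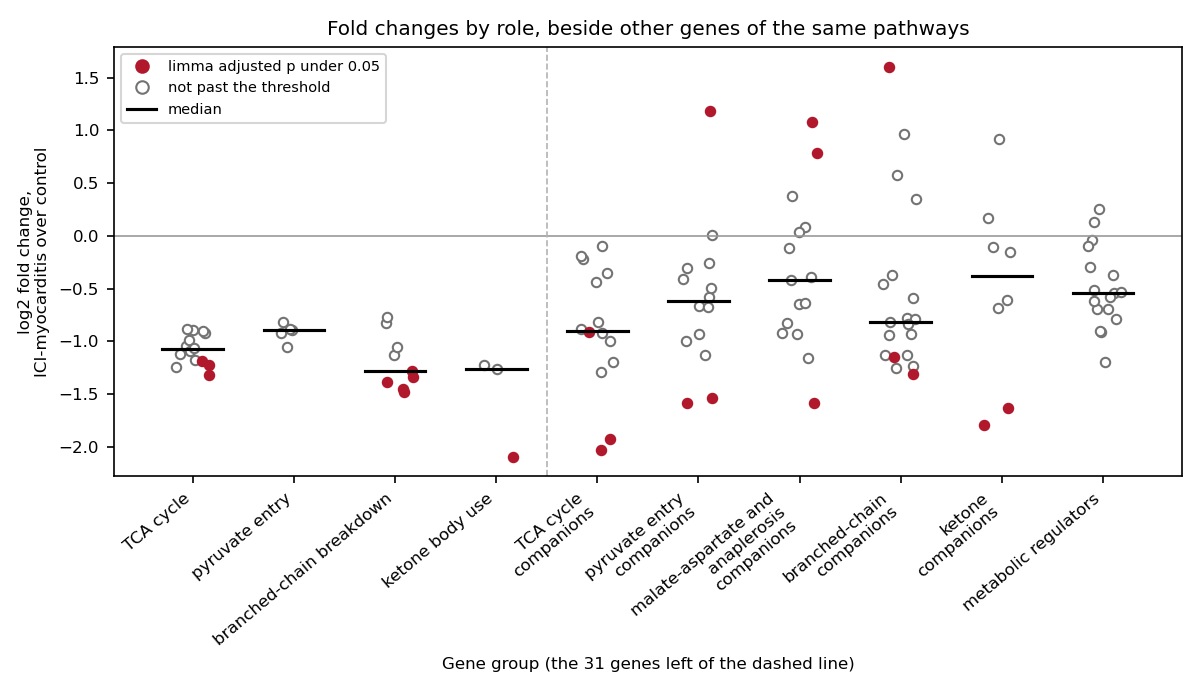
The log2 fold change of each gene by list, for the 31 genes by role and for the lists beside them, with a bar at each median. The medians of the 4 roles lie between -1.28 and -0.90, and those of the other pathway genes and regulators between -0.90 and -0.38.

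Around pyruvate dehydrogenase, 2 of 14 genes were called lower and 1 higher (median -0.62). The called genes include a kinase that switches the complex off and a phosphatase that switches it on. The kinase gene Pdk3 rose from 144 ± 35.5 to 331 ± 104 normalized counts (1.19 ± 0.297 SE in log2 units, adjusted p = 0.0269 in limma). Pdp2, a phosphatase subunit, fell (-1.58 ± 0.369 SE in log2 units, adjusted p = 0.0206 in limma), and Ldhb, lactate dehydrogenase of the heart type, fell (-1.53 ± 0.396 SE in log2 units, adjusted p = 0.0305 in limma). The more abundant kinase genes Pdk2 and Pdk4 had -0.99 and -1.12 (adjusted p = 0.121 and 0.149), and Pdpr, a phosphatase regulator, had -0.58 (adjusted p = 0.145).

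Of 15 genes for the malate-aspartate shuttle and anaplerosis, 1 was called lower and 2 higher (median -0.42). Gpt, an alanine transaminase, fell (-1.59 ± 0.325 SE in log2 units, adjusted p = 0.012 in limma), in 17 of 17 alternatives. Slc25a1, the mitochondrial citrate carrier, rose (1.08 ± 0.25 SE in log2 units, adjusted p = 0.0194 in limma), and Me2, a mitochondrial malic enzyme, rose (0.78 ± 0.224 SE in log2 units, adjusted p = 0.044 in limma) but passed in 8 of 17 alternatives. Slc25a13, an aspartate-glutamate carrier, had -1.16, and Me3 had -0.83 (adjusted p = 0.123 and 0.137).

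The 19 further branched-chain genes had 2 called lower and 1 higher (median -0.82). Slc7a5, a plasma membrane carrier of large neutral amino acids that activated T cells also use, had 304, 168, 174 and 226 normalized counts in controls 1 to 4 and 534, 557 and 909 in ICI-myocarditis 1 to 3. It rose (1.61 ± 0.287 SE in log2 units, adjusted p = 0.00757 in limma), in 17 of 17 alternatives, beside the T cell markers above. The part of T cells in that rise was not tested. Mmaa and Pcca, which belong to the route that takes up propionyl-CoA from isoleucine and valine, fell by 1.31 and 1.15 (adjusted p = 0.0223 and 0.0377). Auh and Aldh6a1 had -1.13 and -1.23 (adjusted p = 0.065 and 0.0843). The regulators of the dehydrogenase complex were not called, the kinase gene Bckdk with -0.46 ± 0.302 (SE; adjusted p = 0.352 in limma) and the phosphatase gene Ppm1k with -0.78 ± 0.407 (SE; adjusted p = 0.238 in limma).

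For ketone bodies, 2 of 8 further genes tested were called lower (median -0.38). Acaa2, a thiolase of fatty acid oxidation placed in this list, fell (-1.63 ± 0.455 SE in log2 units, adjusted p = 0.0408 in limma). Aacs, which uses acetoacetate in the cytosol, and the carrier gene Slc16a7 had 0.92 and -0.61 (adjusted p = 0.0875 and 0.118). Among 17 regulators of mitochondrial and fuel genes none was called by limma or edgeR, while 7 had unadjusted p under 0.05 and DESeq2 called 5 and limma-voom 6, all lower (median -0.54). Ppara, a fatty acid receptor, had -1.19 ± 0.356 (SE; adjusted p = 0.051 in limma). The coactivator Ppargc1a had -0.91, Esrra -0.70, Mef2c -0.58 and Klf15 -0.53 (adjusted p = 0.114, 0.206, 0.0699 and 0.404).

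Beside these, fatty acid oxidation had 2 of 16 genes called lower (Hadha -1.41 and Acadvl -1.37, median of the list -1.23) and glycolysis 2 of 16 called higher (Pfkp 1.21 and the glucose carrier gene Slc2a1 1.07, median of the list -0.17). As 4.0% of all genes tested were called lower and 11.7% higher, the glycolysis count was near the share of all genes. Of the 16 glycolysis genes 12 lay below 0. These called genes and those of the marker lists were named after their values were seen. Complex I and ATP synthase had 0 of 20 called (median -0.96), where unadjusted p was under 0.05 for 8, edgeR called 0, DESeq2 8 and limma-voom 9. Mitochondrial import, chaperones and ribosome had 0 of 24 (median -0.56), with 10 at unadjusted p under 0.05, 0 under edgeR, 5 under DESeq2 and 7 under limma-voom. Differences between these lists were not tested.

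Whether paired transcripts of these pathways changed by the same amount was read from 7 ratios of normalized counts within each library. Such ratios do not depend on the scaling of the library. None passed the test between groups (exact permutation test, two-sided, in which 0.0286 is the smallest p that 4 against 3 libraries allow; p adjusted over the 8 ratios computed from 0.686 to 1.0), and the groups overlapped in all 7. The log2 ratio of Sucla2 to Suclg2 was 1.94, 1.58, 1.96 and 1.95 in controls 1 to 4 and 1.99, 2.03 and 1.56 in ICI-myocarditis 1 to 3, a difference of group means of 0.005 (exact permutation p = 1.0). For Bckdha to Bckdhb it was 2.58, 2.38, 2.31 and 2.12 in controls 1 to 4 and 2.06, 2.19 and 2.49 in ICI-myocarditis 1 to 3, a difference of -0.10 (exact permutation p = 0.486). For Mdh2 to Mdh1 the difference was 0.02, for Idh2 to Idh3a -0.10 and for Idh3a to Idh3b 0.20 (exact permutation p = 0.943, 0.8 and 0.286). Those of Bckdk to Ppm1k and Pcx to Pdha1 were 0.32 and 0.24 (exact permutation p = 0.343 and 0.229). With 4 and 3 libraries these ratios cannot show that the paired transcripts changed alike.

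**Figure D5:**
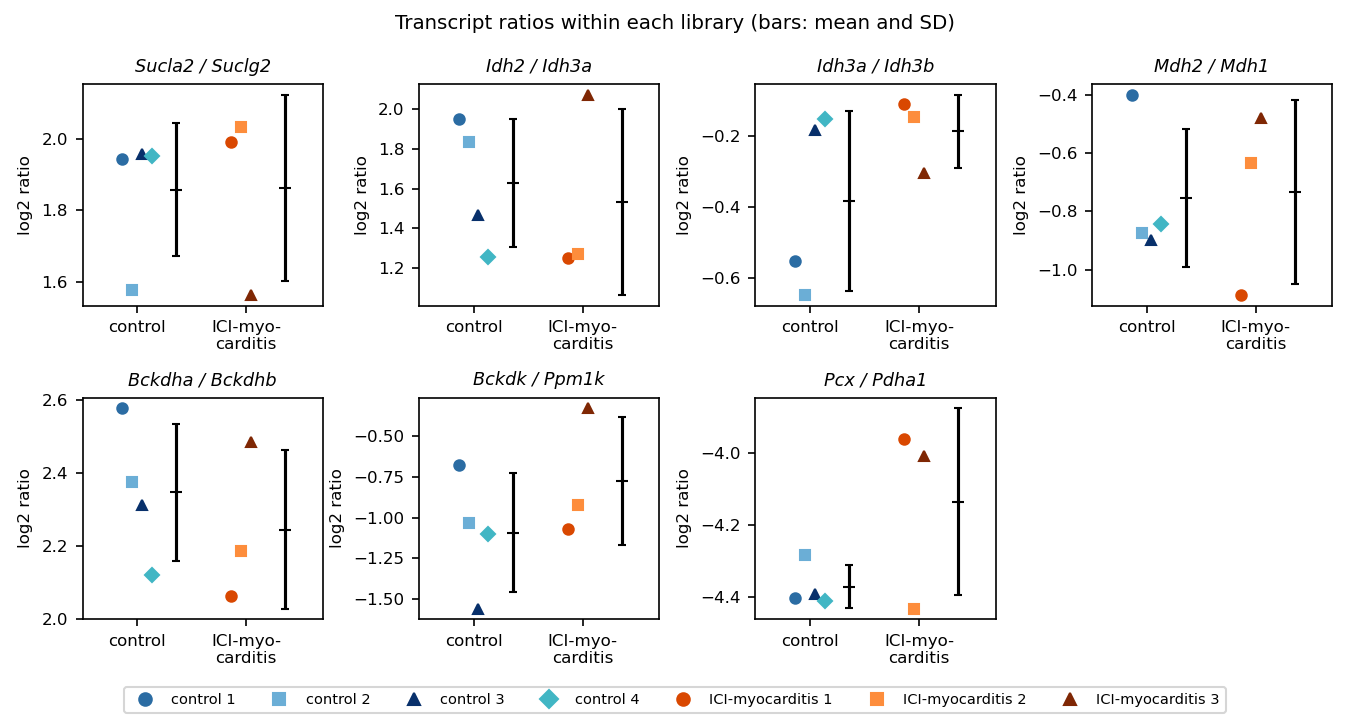
Log2 ratio of 7 pairs of transcripts in each library, with group mean and SD. The vertical axes differ between panels and do not start at 0, and the groups overlap in every panel.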

How the data were processed

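Ventricular total RNA of 7 mice was sequenced, 1 library per animal. Per the submitters' processing notes, reads were aligned with STAR 2.7.3 to GRCm38 (mm10); the counting program, annotation and use of strand are not given in the sources used here. The deposited signal values are gene read counts that the authors divided by 1 size factor per library, as the values show. Dividing by the smallest step gave whole numbers (within 0.01) for 100% of values, although for control 1 the step of 1.01 makes this a weaker sign. The deposited table also holds the authors' log2 fold changes, score and p-values. No column of other samples was present.

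limma 3.58.1 (R 4.3.3, trend and robust) was fitted to log2(normalized count + 1) of every gene that reached 10 normalized counts in 3 or more libraries, with Benjamini-Hochberg adjustment over all 15258 genes and a threshold of 0.05. edgeR 4.0.16, DESeq2 1.42.0 and limma-voom were run on the recovered reads; in all, 17 alternatives were planned and 2 were added after the data were seen. Ratios had an exact permutation test, adjusted over 8. Levels per kilobase used GENCODE M21 principal transcripts. Without molecular identifiers a read is not a molecule. The p-values of limma set the difference between groups against the spread between animals. limma and edgeR were checked on simulated counts in which each gene varied independently. The shared order of libraries seen in the 31 genes was not simulated. Replicate numbers did not pair the animals. The 31 genes, the lists and the tests were chosen with earlier results of these data known. Named genes are all 31, the called genes and the 2 next lowest in p of each list beside them, and Bckdk, Ppm1k, Pdk2, Pdk4, Klf15, Ppargc1a and Esrra. A gene that met this rule, and the ratio that used it, are not reported here.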

Additional observations from a re-analysis of the deposited data

Results flagged for a closer look

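Of 71 results tested for a library far from the others of its group, 4 were past the 95% limit for 4 libraries, where chance gives about 1 in 20, or 3.55. The 3 ICI-myocarditis libraries were not tested in this way. The measure was the gap to the nearest other control as a share of the range of all 4 controls, on the log2 scale. In Dhtkd1, control 2 lay above the other controls by 0.877 of that range. For the log2 ratio of Sucla2 to Suclg2, control 2 lay below the others by 0.960 of the range. For Pcx to Pdha1, control 2 lay above them by 0.846. For Mdh2 to Mdh1, control 1 lay above the others by 0.892.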

How the results depend on the processing

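The count of the 31 genes called lower, 9, was 23 with DESeq2 and 29 with limma-voom with quality weights. It was 3 with the replicate block, where 389 of the 15258 genes tested were called lower. After scaling to cardiomyocyte markers it was 0, and it was 1 to 28 when each library was left out in turn. The count over all genes, 2397, was 4003 with limma-voom, 3443 with DESeq2 and 986 to 3340 when each library was left out. The cause of these differences was not tested. The share of calls that were higher was 74.6%, against 63.9% with DESeq2, 62.1% with limma-voom and 98.9% after scaling to cardiomyocyte markers, which raised the median of all genes to 0.86 and put that of the 31 at -0.20; scaling to library totals raised the former to 0.14. Over 17 other fits all 31 genes stayed below 0. Of their values 431 were on the same side of the threshold, 38 lost and 58 gained a call, and for the named genes beside them 458, 51 and 35. Scaling to cardiomyocyte markers, added after the data were seen, turned the sign of Cs (0.00122), Mdh2 (0.0114), Pdhx (0.0131), Pcx (0.0793), Bcat2 (0.0688), Hibch (0.12), Pdpr (0.32), Me3 (0.0652), Bckdk (0.43), Ppm1k (0.11), Slc16a7 (0.28), Mef2c (0.31), Klf15 (0.36) and Esrra (0.20). With control 2 also left out, that scaling called 0 of the 31 and 7510 genes in all, put the median of the 31 at -0.22 and turned the sign of Cs (0.00865), Pcx (0.15), Bcat2 (0.13), Hibch (0.0435), D2hgdh (0.19), Dhtkd1 (0.35), Pdpr (0.38), Me3 (0.0835), Bckdk (0.44), Ppm1k (0.0965), Slc16a7 (0.44), Mef2c (0.52), Klf15 (0.38) and Esrra (0.27). Of the ratios, Mdh2 to Mdh1 was -0.0101 with the replicate block. Leaving out libraries gave -0.106 to 0.197 for Mdh2 to Mdh1, -0.0888 to 0.155 for Sucla2 to Suclg2 and -0.366 to 0.0452 for Idh2 to Idh3a. In the check of pairing, same-numbered libraries correlated at -0.271, -0.206 and -0.0784 in their deviations from group means. No ICI-myocarditis library correlated best with the control of its own number. How far depth limits these comparisons was not tested.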
